A study of Mus musculus with 60 samples.

Results

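Circular RNAs (circRNAs) listed for the mouse brain and for no other organ of the study, and spanning at least 10000 bases of the genome, are described here. A circRNA counted when its name, made of the chromosome and both ends, stood in the authors' deposited brain table and in none of the tables for heart, kidney, liver and spleen. Its span, the last base minus the first plus 1, had to be 10000 or more. The rule found 421 circRNAs of the 1856 in the brain table and of the 2799 different ones over all 5 organs. The other 680 brain-only circRNAs were shorter. A further 755 circRNAs of the brain table also stood in another organ's table, 266 of them with a span of 10000 or more and 489 with a shorter one. The 421 were thus chosen by their listing, which rests on measured levels, and by their span, so the listing and the length are descriptions. Each table was filtered by the authors for low expression by itself, so a missing entry does not show absence from the organ.

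The samples came from whole organs of 3 mice labelled Ftsj1_DF, deficient in Ftsj1, and 3 labelled WT, wild type. All 6 mice were male, 4 months old and untreated. Brothers made up 2 sets, a set of 4 with 2 mice of each genotype and a set of 2 with 1 of each. The sources used here give neither the strain nor the way the deficiency was made. Every library, 1 per mouse and organ, was run in 2 sequencing batches, which gave 12 brain samples of the 60 in the series. The values below are the authors' own comparison over the brain libraries. Single libraries were not analysed here, so depth is unknown and no spread between mice can be shown. The error given is the standard error (SE) of the authors' fit. The labels do not say which genotype is on top of the fold change, so signs are given as deposited and a direction in Ftsj1_DF brains is not stated for any circRNA.

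A circRNA forms when the end of a downstream exon is joined back to the start of an upstream exon of the same transcript, so its ends mark a back-splice junction. Circles have no free ends and resist exonucleases, for which reason RNase R, an enzyme that digests linear RNA, was used to enrich them. Mammalian brain is known for many circRNAs, often from genes of the synapse, and they are known to build up with neuronal differentiation and age. Introns inside the circle are usually removed, so a span in the genome says how far apart the joined exons lie and not how long the mature circle is. Ftsj1 encodes a methyltransferase that modifies the anticodon loop of certain tRNAs and is tied to intellectual disability in humans. Positions are given in the mouse build GRCm39, which the submitters' processing notes name. The tables pair no gene names with these positions, and an annotation of that build was not used here, so the circRNAs are called by position.

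The 421 circRNAs were mostly sparse. Their mean normalized count, the mean over the brain libraries of both genotypes, had a median of 2.85 in the authors' deposited table, with quartiles at 1.69 and 5.05 and a range from 0.526 to 91.9. The shorter brain-only circRNAs had nearly the same median, 2.84. The brain circRNAs listed elsewhere were more abundant, with a median of 6.93 for spans of 10000 or more and of 6.25 for shorter ones. Over the whole brain table the median was 3.87. Of the 421, 74.6% had a mean normalized count under 5, against 60.5% of the brain table. At a mean of at least 20 stood 13 of the 421 (3.09%), 22 of the 680 shorter brain-only circRNAs (3.24%) and 45 of the 266 long ones listed elsewhere (16.9%). The 421 were 22.7% of the entries of the brain table and held 13.8% of its summed mean normalized count.

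**Figure D1:**
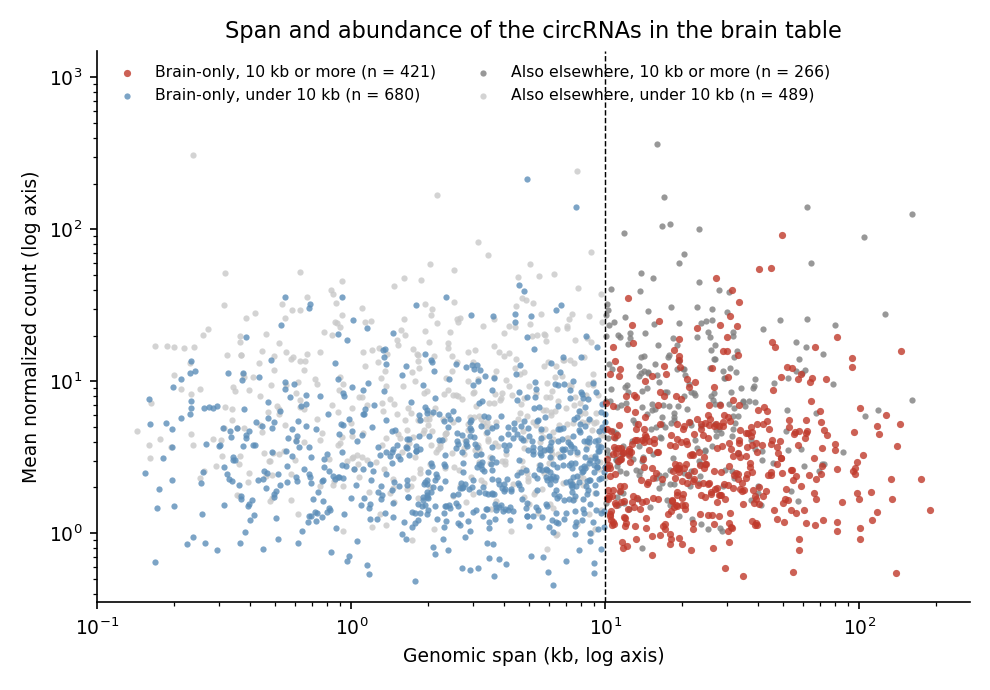
Genomic span in kb against the mean normalized count of each circRNA in the authors' deposited brain table, both on log axes, 1 point per circRNA. The 421 brain-only circRNAs of 10 kb or more lie right of the dashed line at 10 kb and mostly low, with a median of 2.85 against 6.93 for the 266 of that length also listed in other organs.

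A few long brain-only circRNAs were abundant. The highest, chr15:39430339-39479906, had a mean normalized count of 91.9 in the authors' deposited table and ranked 14 among all 1856 brain circRNAs. Next were chr7:46240031-46284980 at 55.5 and chr13:91672704-91712813 at 54.6 in the authors' deposited table. These 3 circles spanned 49568, 44950 and 40110 bases. The circle chr10:89885678-89913004 stood at 47.7 and chr1:174949294-174980796 at 40.1 in the authors' deposited table. Then came chr5:37339425-37351648 at 35.5, chr18:63924867-63958309 at 33.2 and chr15:39448986-39479906 at 27.0. The list of the 10 most abundant ended with chr5:27587753-27604010 at 25.03 and chr4:48604581-48617331 at 23.7 in the authors' deposited table. All 10 ranked among the first 122 of the brain table by abundance, and by the rule none of them was listed for another organ.

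Span varied widely and went along with abundance only weakly. The median span was 25767 bases, with quartiles at 15509 and 43216, and the longest circle, chr2:41660857-41850790, spanned 189934 bases at a mean normalized count of 1.43. The second, chr6:99237306-99412306, spanned 175001 bases at 2.26. The third, chr1:176930528-177076447, spanned 145920 bases and was more abundant, at 15.8 in the authors' deposited table. Then came a pair on chromosome 11, chr11:108555322-108699565 at 5.27 and chr11:118561475-118702242 at 3.75. Across the 421 circles Spearman's rho between span and mean normalized count was 0.0625, a description over circRNAs of the same libraries. Right at the limit, in the authors' deposited table, the 5 circles just inside spanned 10041 to 10184 bases and had mean normalized counts from 1.71 to 7.22. The 5 just outside spanned 9884 to 9998 bases, with mean normalized counts from 1.41 to 6.06.

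The circles were spread over the autosomes and the X chromosome. Chromosome 2 held 40 of them and chromosome 1 held 35. As a share of all brain circRNAs on a chromosome they ranged from 11.1% on chromosome 19 (6 of 54) to 34.7% on chromosome 13 (25 of 72). Chromosome X, where Ftsj1 lies, held 4 of the 421 and 24 of the brain table. These 4 were sparse, with mean normalized counts from 0.802 to 1.67, and their log2 fold changes ran from -1.64 to -0.31 with SEs from 2.08 to 2.35 in the authors' deposited table.

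Many of these circles shared a piece of the genome, and often an exact end, with others. The 421 fell into 338 loci of overlapping circles. Of these loci 286 held a single circle, and the other 52 held 135 circles together. Another of the 421 had the same start or the same end for 113 circles (26.8%). Counting every circRNA of the brain table, 207 of the 421 (49.2%) shared a start or an end with another. The shares were 64.3% for the long circRNAs listed elsewhere and 20.7% for either set of shorter ones. Of the 421, 174 (41.3%) enclosed at least 1 other brain circRNA, up to 9 in a single case. Among the long ones listed elsewhere, 118 of 266 (44.4%) did so. These shares were not tested, since circRNAs of the same locus are not independent. Within the 52 loci the most abundant circle held a median of 66.7% of the locus's summed mean normalized count, with a range from 26.8% to 97.2%.

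The locus with most circles lay on chromosome 15 between 39398234 and 39479906 and held 8, all of them brain-only and long. Of the 8, 7 ended at the same base, 39479906, and differed in where they started. The circle from 39430339 carried 66.2% of the locus's summed mean normalized count, at 91.9. The circle from 39448986 followed at 27.0 in the authors' deposited table. The 4 circles from 39418461, 39418464, 39449102 and 39398234 had mean normalized counts of 5.58, 4.57, 3.95 and 2.66 in the authors' deposited table. The circle from 39449105 had 0.879. The eighth circle used the leading start, 39430339, but ended at 39449158, and had 2.32 in the authors' deposited table. Thus 1 shared end was combined with 7 starts, and the most abundant of these circles stood 104.5-fold above the least abundant in the authors' deposited table.

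Other loci combined ends in other ways. On chromosome 7 the 4 circles that ended at 46284980 started at 46240031, 46264042, 46165092 and 46270985, with mean normalized counts of 55.5, 10.3, 4.51 and 1.59 in the authors' deposited table. On chromosome 13 the pattern was turned round: 4 circles started at 91672704. They ended at 91712813, 91790510, 91752574 and 91712832, with 54.6, 5.09, 3.87 and 2.03 in the authors' deposited table. The leading circle was the second longest on chromosome 7 and the shortest on chromosome 13. On chromosome 6, between 36976977 and 37064629, 3 starts and 3 ends gave 6 long brain-only circles, and chr6:37006698-37034963 led with 23.6. All 3 shorter brain circRNAs that overlapped this locus were brain-only too.

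In 2 of the crowded loci circRNAs listed in other organs held most of the signal. On chromosome 10, 5 long brain-only circles lay in the span from 13879945 to 13961826, led by the outermost, chr10:13879945-13961826, at 19.5. The circle chr10:13879945-13942428, which all 5 organs listed, had the same start and stood at 140.2 in the authors' deposited brain table. The 5 brain-only circles held 22.3% of the summed mean normalized count of the 8 brain circRNAs there. On chromosome 4, from 150490653 to 150619402, 5 of 12 brain circRNAs were long and brain-only and held 28.2% of the sum. The most abundant of the 5 reached 5.40, against 19.9 for chr4:150584460-150594495, which 4 organs listed. On chromosomes 15 and 7 the long brain-only circles were the entire brain listing of the locus.

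**Figure D2:**
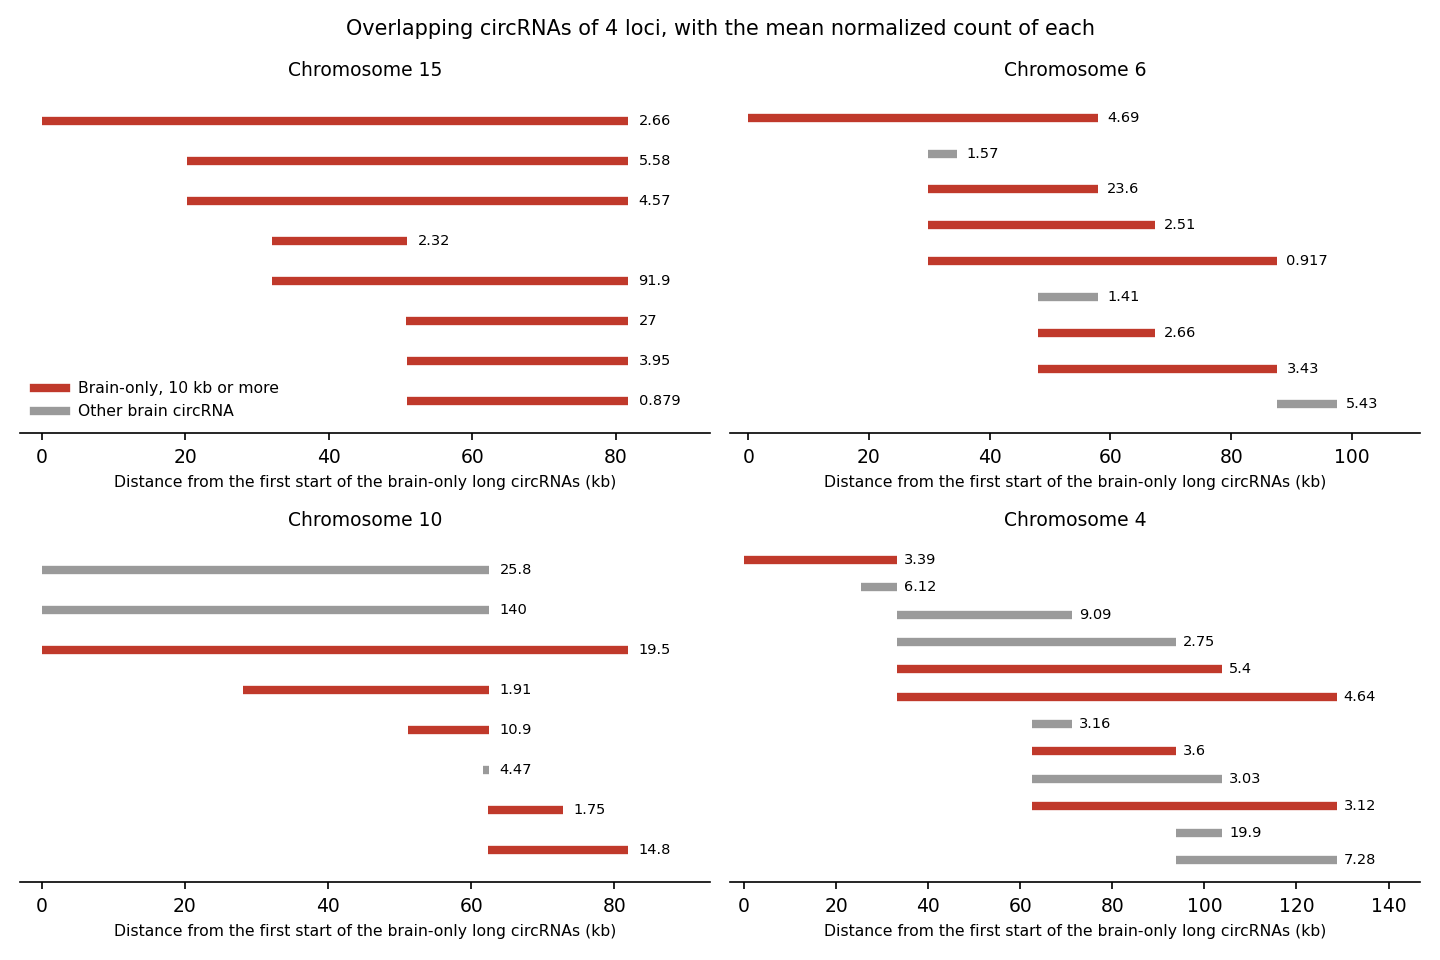
The circRNAs of the brain table at 4 loci, drawn to scale as bars against the distance in kb from the first start of a long brain-only circle, with the mean normalized count of each at its right end. Red bars are brain-only circles of 10 kb or more and grey bars are other brain circRNAs; on chromosome 15, 7 of 8 circles end at the same base, and on chromosome 10 a circle of all 5 organs leads with 140.2.

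Some starts and ends lay very close together. At 7 places a circle ended shortly after the start of another of the 421, so that both would contain the same few bases. Counting each pair of a start and an end, these were 9 stretches of 54 to 173 bases, 3 of them nested at the same end on chromosome 15, and 20 of the 421 circles took part. The limit was set at 500 bases after the values were seen, and no stretch of 501 to 1000 bases occurred. On chromosome 10 the stretch ran from 13942327 to 13942428, on chromosome 2 from 33174837 to 33174920, and on chromosome 4 from 150523800 to 150523925. None of the 9 stretches was itself listed as a circRNA in any organ. Most were shorter than the shortest circRNA of the brain table, which spanned 143 bases, so this carries little information. With no annotation of this build used here, whether the stretches are exons was not tested. In 3 further pairs the circles shared 1 end while the other ends lay within 30 bases of each other. In 2 of these, both on chromosome 15, the starts lay 3 bases apart, 39418461 and 39418464 in one and 39449102 and 39449105 in the other. In the third, on chromosome 13, the ends 91712813 and 91712832 lay 19 bases apart.

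Although no other organ listed these circles, part of their ends recurred there. A start or an end was shared exactly with a circRNA of another organ by 84 of the 421 (19.95%), compared with 57 of the 680 shorter brain-only circRNAs (8.38%). The start was shared by 40, the end by 54 and both, with different partners, by 10. Any overlap with a circRNA of another organ was found for 95 of the 421 (22.6%) and for 61 of the 680 shorter brain-only circRNAs (8.97%). The other 326 and 619 overlapped none. These sets were divided by span, with medians of 25767 and 2749.5 bases, and a wider span has more room to overlap. The difference in overlap thus follows in part from the rule. By organ, 67 of the 84 had such a partner in kidney, 47 in liver, 42 in heart and 27 in spleen, from tables of 996, 900, 664 and 308 circRNAs. Partners in all 4 other organs were found for 16 circles and in 1 organ for 36. The 84 spanned a median of 33534 bases, against 23733 for the other 337.

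For 72 of the 84 a partner listed in another organ also stood in the brain table, which allowed the levels to be compared on a single scale. The brain-only circle was the less abundant of the pair in 63 of 72 cases, set against its most abundant partner. The ratio of the mean normalized counts had a median of 0.289, from 0.00961 to 4.00, and lay under 0.5 in 52 cases. The brain-only circle was the longer of the pair in 61 cases (84.7%), with a median difference of 18926 bases. Part of this follows from the rule, which asks for a long span of the brain-only circle and not of its partner. The lower abundance also follows in part from the choice of pairs. Brain-only circles were the sparser group from the outset, and of several partners the most abundant was taken. Some partners, such as chr10:13879945-13942428, stood in several pairs, so the pairs are not independent. An example is chr6:88332465-88353393 at 2.13 beside chr6:88332465-88335624, listed in all 5 organs, at 82.6 in the authors' deposited brain table. Likewise chr11:6263788-6274922 stood at 4.46 beside chr11:6263788-6267080 at 23.1.

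The brain-only circle was the more abundant in the other 9 pairs, and it was the longer one in each of them. The widest ratio was that of chr8:92194945-92211906, with 12.5 against 3.13 for chr8:92194945-92201080, which liver also listed. The circle chr15:35072576-35115791 stood at 6.39 against 2.00 for its partner from 35099580, and chr2:37826631-37873117 at 16.9 against 5.43 for its partner from 37851653. The long circle chr1:176930528-177076447 had 15.8, against 6.48 for its partner from 176958537, in the authors' deposited brain table.

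**Figure D3:**
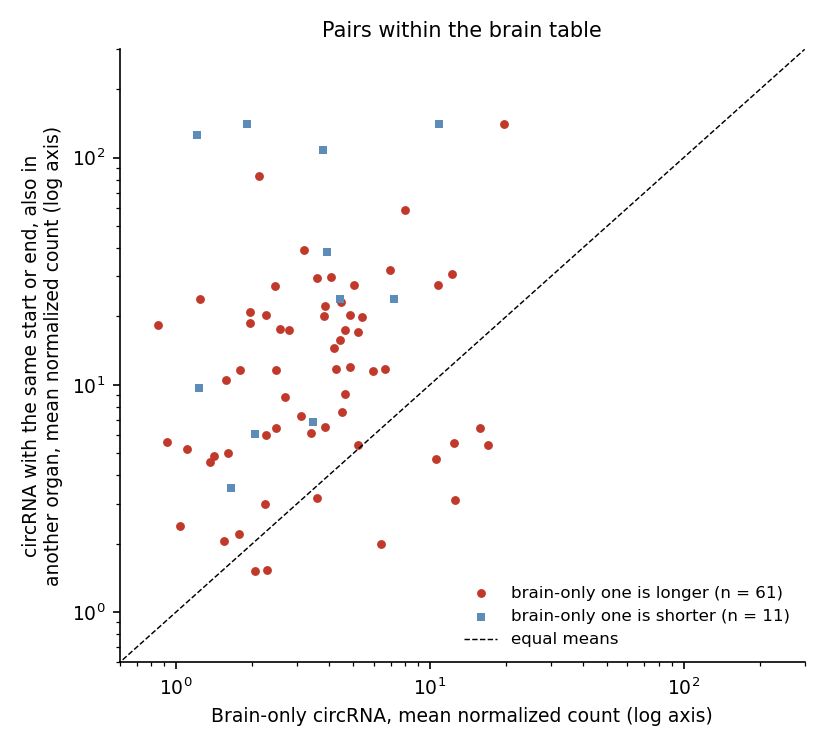
Mean normalized counts within the authors' deposited brain table for 72 pairs, the brain-only circle of 10 kb or more on the horizontal axis and its most abundant partner with the same start or end, listed in another organ, on the vertical axis, both log. Most points (63 of 72) lie above the dashed line of equal means, and the 61 circles marked as longer than their partner include all 9 below it.

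The question put to each circle was whether it differed between Ftsj1_DF and WT brains. In the authors' DESeq2 test none of the 421 passed an adjusted p of 0.05, as none of the 1853 tested brain circRNAs did (0%). The smallest adjusted p among the 421 was 0.589. All 421 had a p-value, and 12 of them (2.85%) had an unadjusted p below 0.05, where the share over the brain table was 2.05%. Of the 12, 11 were negative (2.61% of the 421, beside 1.40% of the brain table) and 1 was positive (0.238%, beside 0.648%). The Wald statistics of the 421, each log2 fold change divided by its SE, had an SD of 0.773, below the SD of 1 on which the p-values rest. Over the whole brain table this SD was 0.753. With a median SE of 1.99 for the 421, the usual 95% interval spanned 3.91 log2 units on each side. None of their intervals lay wholly within a 2-fold change. Wholly within an 8-fold change lay 5 of the 421, beside 84 of the 1856 in the brain table. At this precision large differences could go undetected for most of the circles.

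The smallest p belonged to chr17:66331071-66360086, whose log2 fold change was -7.19 (SE 2.00) and whose mean normalized count was 15.8 in the authors' deposited table. After it came chr1:8624949-8695105 with -5.83 (SE 1.99) and a mean of 6.39. The single positive one, chr11:70765572-70777997, had 5.40 (SE 2.12) in the authors' deposited table, where its mean was 3.58. The next positive circle, chr17:72107794-72117977, had 3.20 (SE 2.01, unadjusted p = 0.111 in the authors' DESeq2 test). Of the 12, 10 lay where the size of the fold change follows from the mean alone. Over the whole brain table, 22 of the 38 with an unadjusted p below 0.05 lay there. In all, 2.38% of the 421 lay there, beside 1.19% of the brain table. On this plateau the size of the log2 fold change lay at least 3.09 above log2 of the mean, and the next circRNA of the brain table was 2.31 above it. For these 10, the 3 just named at p below 0.05 among them, the printed size is no estimate of how strongly a circle differed. Whether their counts lay in a single genotype was not tested. The 2 others were chr12:102957609-102988135 at -4.51 (SE 1.70) and chr19:57740062-57785935 at -4.65 (SE 1.79) in the authors' deposited table.

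**Figure D4:**
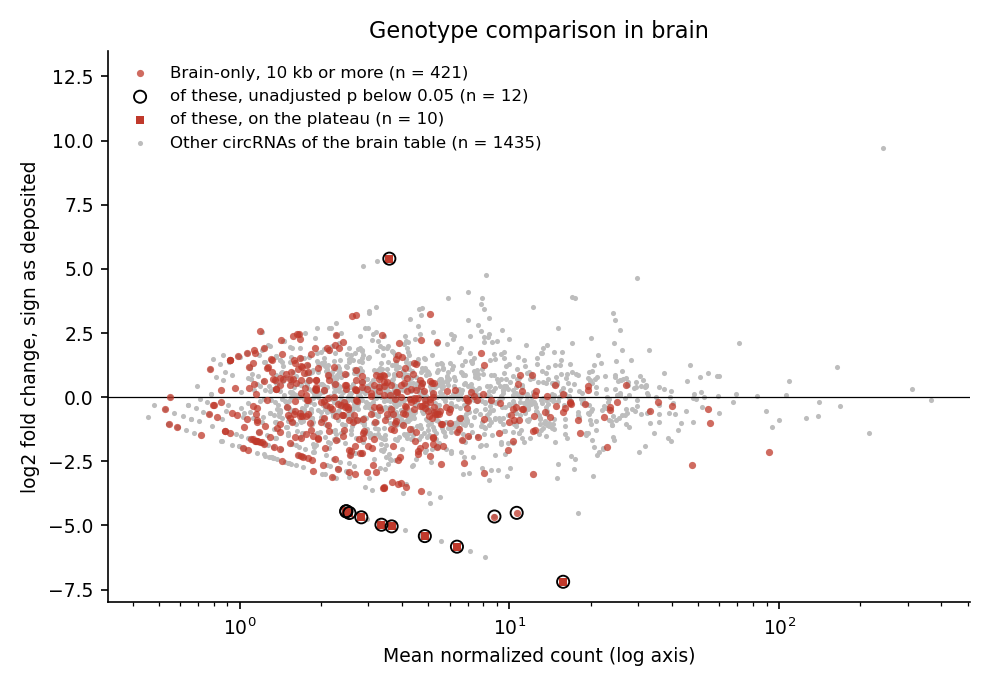
Log2 fold change, with the sign as deposited, against the mean normalized count (log axis) for the 421 brain-only circles of 10 kb or more in red and the other 1435 brain circRNAs in grey. Open rings mark the 12 with an unadjusted p below 0.05 and squares the 10 of these on the plateau, where the size of the fold change follows the mean.

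For some of the 12, a circle with the same start or end was also measured. Of the 12, 6 had another brain circRNA with the same start or the same end, 1 each, and 1 of those 6 partners was itself at an unadjusted p below 0.05. That was the partner of the positive circle: chr11:70765572-70775794, also listed in kidney and spleen, had 4.63 (SE 2.26) in the authors' deposited brain table, with a mean of 29.7. The circle chr19:57740062-57766377 had the start of the negative one above and -2.98, with a 95% interval from -5.99 to 0.03. In the remaining 4 cases the partner was more abundant and lay between -0.90 and -0.20. The circle chr12:102977459-102988135, with the end of the one at -4.51, had a mean of 16.8 and -0.20 (-2.98 to 2.57) in the authors' deposited table. On chromosome 1, the circle from 22416517 to 22464172 had -4.97 (SE 1.98), and the one from the same start to 22449764 had -0.35 (-3.19 to 2.48). On chromosome 10, the circle from 7090319 to 7104485 had -5.41 (SE 1.99), while the one from 7102864 to the same end, listed in all 5 organs, had -0.47 (-2.88 to 1.94). The circles at -4.97 and -5.41 lay on the plateau, so their sizes are no estimates. The 12 were picked for their small p, so partners nearer to 0 carry no information on a difference. The 95% intervals within each of these last 3 pairs overlapped, and the differences within pairs were not tested.

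As a whole the 421 leaned to the negative side. Their median log2 fold change was -0.38 in the authors' deposited table, with quartiles at -1.32 and 0.47, and 263 (62.5%) were negative. The median was -0.31 for the shorter brain-only circRNAs, of which 59.9% were negative. Among circRNAs listed elsewhere it was -0.10 for the long ones (54.9% negative) and 0.19 for the shorter ones (41.7% negative). The whole brain table had a median of -0.14, and 1020 of 1856 were negative. At means of 8.06 and above, 1 of 4 equal parts of the brain table by abundance, 56 of the 421 had a median of -0.46 and 76.8% were negative. At these means the shorter brain-only circRNAs had a lower median, -0.54, with 68.9% negative, and the long ones listed elsewhere had -0.25 and 59.5%. In the least abundant of the 4 parts, at means up to 2.12, the 148 long brain-only circles had -0.17 and 54.7%, beside -0.30 and 57.0% for the shorter brain-only ones. In the parts between these, the long brain-only circles had the lower medians, -0.42 beside -0.17 and -0.38 beside -0.34 for the shorter ones. At a mean of 5 or more the medians were -0.50 for the long and -0.55 for the shorter brain-only circRNAs. By median, the order of the long and the shorter brain-only circRNAs thus changed with abundance. By share negative, the long ones were higher in the parts between, 61.2% beside 56.9% and 67.3% beside 62.7%. The long circRNAs listed elsewhere had a less negative median than either in every part. From the least to the most abundant part it was -0.008, -0.037, -0.007 and -0.25. These medians describe a single set of brain libraries, lie well inside the error of any 1 circle and were not tested against the spread between mice.

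Within the 421, longer circles were more often negative. Divided into 4 groups by span, the 106 circles of 10041 to 15509 bases had a median log2 fold change of -0.07 in the authors' deposited table, with 52.8% negative. The 105 circles of 15580 to 25767 bases had -0.45, with 63 negative, and the 105 of 25975 to 43216 bases had -0.40 and 65.7%. The 105 longest, up to 189934 bases, had -0.72 and 71.4%. Median mean normalized counts in the 4 groups were 2.89, 2.83, 2.88 and 3.12, and median SEs ran from 1.98 to 2.01. The share with a mean under 5 was 81.1% in the shortest group and 73.3%, 70.5% and 73.3% in the others. Whether abundance had a part in the order by span was not tested. Leaving out means under 5, the medians of the 4 groups were -0.11, -0.44, -0.55 and -0.75 over 20, 28, 31 and 28 circles. With the same limits of span, the long circRNAs listed elsewhere had medians of 0.13, -0.22, -0.18 and -0.12. These groups held 86, 82, 64 and 34 circRNAs, of which 46.5%, 58.5%, 60.9% and 55.9% were negative. Here too the shortest group had the lowest share. The shorter brain-only circRNAs, divided into 4 groups by their own span, had medians of -0.44, -0.29, -0.15 and -0.36. Their shortest group, of 154 to 997 bases, was 63.5% negative, so a negative median was not limited to long spans. Spearman's rho between span and log2 fold change over the 421 was -0.150, and it was -0.313 over the 107 with a mean of 5 or more. The division by span was made after the values were seen.

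**Figure D5:**
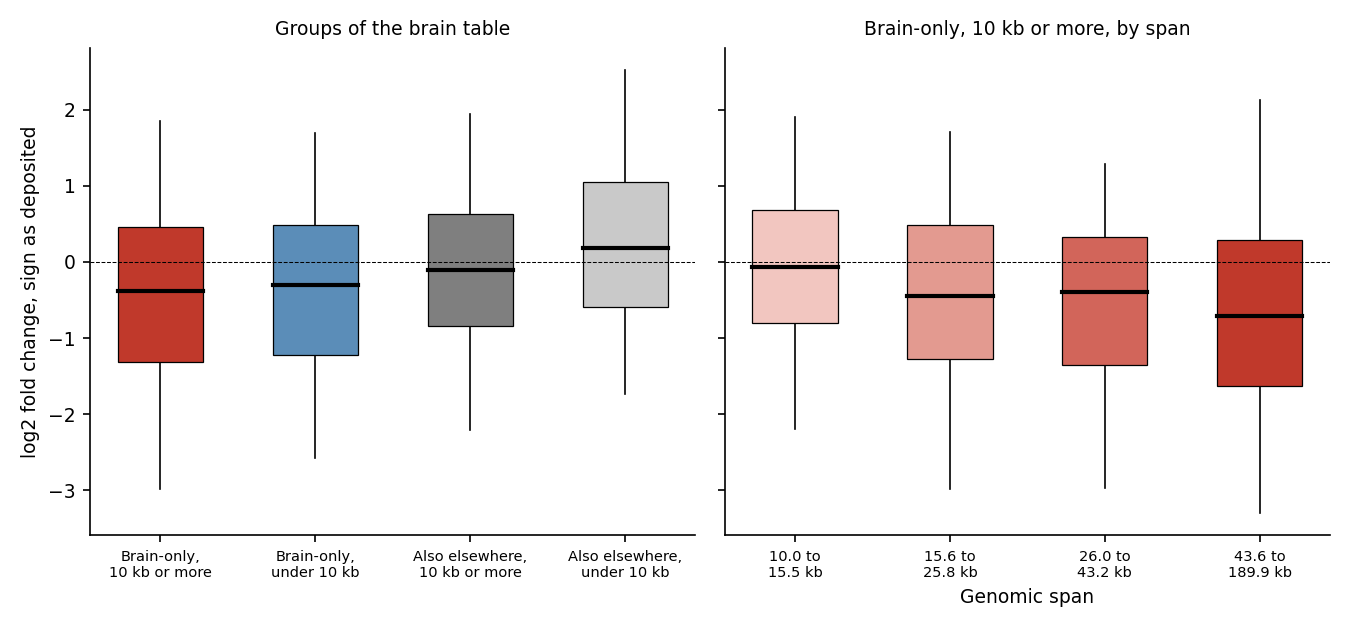
Log2 fold change with the sign as deposited, as medians (thick line), quartiles (box) and the 5th to 95th percentile (thin line), on the left for the 4 groups of the brain table and on the right for the 421 brain-only circles of 10 kb or more divided by span. On the left, with all means kept, the median is -0.38 for the 421 and -0.31 for the shorter brain-only circRNAs, and on the right it is -0.07 in the shortest group and -0.72 in the longest.

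Overlapping circles did not always have the same sign. In 23 of the 52 loci with at least 2 circles all signs were equal, 19 of them negative and 4 positive. Of the 52 loci 37 held only 2 circles, and 62.5% of the 421 were negative. Many equal signs, mostly negative, would thus arise without any tie between overlapping circles, and such a tie was not tested. On chromosome 15 the leading circle of 91.9 had -2.15 (95% interval -4.99 to 0.69), while the circle of 27.0 with the same end had 0.48 (-2.47 to 3.43) in the authors' deposited table. All 4 circles of the chromosome 13 locus were negative, from -2.64 to -0.06. On chromosome 10, 4 of the 5 between 13879945 and 13961826 were positive, from 0.40 to 0.84. Every circle of these 3 loci had a 95% interval that included 0.

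The circles estimated most closely showed no difference within their errors. The smallest SE was that of chr5:37339425-37351648, which the authors' deposited table puts at -0.20, with a 95% interval from -2.65 to 2.25. Next came chr18:33211046-33262886 at 0.07 (-2.61 to 2.75) and chr8:88585912-88631176 at -1.40 (-4.10 to 1.31). The circle chr15:39370362-39381267 had -0.60 (-3.32 to 2.13) and chr10:43269867-43289543 had -1.28 (-4.02 to 1.45). Among the 10 most abundant, 9 were negative, beside 76.8% of the 56 circles with means of 8.06 and above. The furthest from 0 of these 10 was chr10:89885678-89913004 at -2.64 (-5.45 to 0.16). Its unadjusted p was 0.0645 and its adjusted p was 1.00 in the authors' DESeq2 test. Even the narrowest of these intervals reached beyond a 4-fold change in either direction.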

How the data were processed

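CircRNA sequencing of RNase R-treated, rRNA-depleted RNA was deposited as 5 tables, 1 for each organ, with the authors' comparison of the genotypes and no values per library. BWA (0.7.17-r1188), DESeq2 and the build GRCm39 are named, without roles, in the submitters' processing notes. The sources used here do not give the circRNA caller, the formula or how the 2 batches were handled. Every entry, per the file headers, has a mean signal (DESeq2's mean of normalized counts), a log2 fold change with its SE, a Wald statistic (unit: score), a p-value and an adjusted p-value. In the deposited tables the statistic was the ratio of log2 fold change to SE. In the brain table, Benjamini-Hochberg adjustment of the deposited p-values gave the deposited adjusted p within rounding. Depth is unknown. Mice are the replicates, and if both runs of a library entered the authors' fit separately, the SEs are too small.

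Members were found by exact name and span. Loci join overlapping circles, and 95% intervals run 1.96 SE to either side. Medians and counts are descriptions, and no test was run on them here. The planned host gene lists and junction sequences needed a genome of build GRCm39, which was not used here. The annotation at hand is of GRCm38. Circles were named by a rule: the most abundant, the smallest p, the longest span and the ends of the span limit. It also took the largest loci, chromosome X, the smallest SE and the most abundant with a partner in another organ. Of the last kind, chr14:28039206-28106000 was left out above. Other circles with such a partner were named as examples outside this rule. At most 2 per sign were named for their p, with those off the plateau and those sharing an end added after their values were seen. Members and lists were chosen with earlier results of these data known. Geometry and adjustment code was tested on simulated data. Python 3.11.15, pandas 2.3.3 and numpy 2.4.6 were used.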

Additional observations from a re-analysis of the deposited data

How the results depend on the processing

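Of 24 alternative values for 6 results, 20 kept their direction and stayed within 1.5 times the reported value. At a span of 20000 or more the 421 circles became 262, and their median log2 fold change was -0.58, beside -0.38 for the 421. The 12 circles with an unadjusted p below 0.05 became 4 at a mean normalized count of 5 or more, when 107 circles were left, and 2 without the plateau. The plateau holds circles of large fold change by construction. The shares were then 3.74% of 107 and 0.487% of 411, beside 2.87% and 0.874% of the brain table under the same settings. Results that kept their value included the absence of calls, at an adjusted p below 0.1 and with a recomputed adjustment. Neither of these settings, both counted among the 24, could change it. The smallest adjusted p of the 421 in the authors' DESeq2 test was 0.589, and the recomputed values matched the deposited ones. The number of circles was 419 when ends within 5 bases matched between organs and 326 when any overlap removed a circle. The median of the longest circles was -0.75 at a mean of 5 or more and -0.66 without the plateau, 2 settings chosen after seeing the data. No paired analysis was possible because the tables hold no values per mouse, so replicates could not be left out in turn either. Depth per library is unknown.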

Other observations

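The brain-only listing of 2 of the 421 circles rested on 3 bases. The circle chr3:51215471-51233453 had a mean normalized count of 3.78 in the authors' deposited brain table. A circle with the same start and an end 3 bases further, 51233456, stood at 108.3 in the authors' deposited brain table and was listed in all 4 other organs. The circle chr2:113256870-113309308, at 1.65, had the end of chr2:113256867-113309308, at 3.51, whose start lay 3 bases before and which kidney also listed.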
